A study of Mus musculus with 26 samples.

Results

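The Roundabout receptors *Robo1*, *Robo2*, *Robo3* and *Robo4*, the Slit ligands *Slit2* and *Slit3*, the netrin receptor *Unc5b* and the netrins *Ntn1* and *Ntn4* were followed through the eye choroid, the vascular layer behind the retina. These 9 genes were taken by name, and all 9 had a row among the 16426 genes of the single-cell RNA sequencing (scRNAseq) tables and among the 17623 genes of each of 2 bulk RNA sequencing tables. A further bulk table of 99 genes enriched in choroidal endothelial cells (ECs) listed 1 of them, *Robo3*. The genes were chosen by their UMI levels and average FPKM in these same samples, so every level below is a description and none was tested.

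Slits are large secreted proteins that bind Roundabout receptors and turn growing axons away, and netrins are secreted, laminin-related proteins that attract or repel axons through DCC, neogenin and UNC5 receptors. The same families act on vessels. ROBO4 is the Roundabout receptor of endothelium, lacks most of the extracellular domains that bind Slits in its relatives, and binds UNC5B, an endothelial netrin receptor of arteries and sprouting capillaries, to hold vessels quiescent and tight. ROBO3 is best known from hindbrain and spinal cord neurons, where it controls the crossing of the midline.

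The scRNAseq data came from RPE/choroid tissue (retinal pigment epithelium and choroid) of 3-month-old mice, with 1 library of B6129PF1/J and 1 of C57BL/6J, each pooled from a male and a female. With 1 library per strain, strain and library cannot be told apart. The bulk RPE/choroid tissue came from 6-month-old C57BL/6J mice given tamoxifen 12 weeks earlier, 3 labelled wild type (Ihh+/+) and 3 with *Ihh* deleted in ECs (Ihh iΔEC/iΔEC). Per the methods, both groups carried the tamoxifen-inducible Cdh5-CreERT2 transgene, which acts in all ECs of the body and not in the choroid alone. The cultured cells were choroidal GLI1+ cells of Gli1GFP/+ mice, labelled SWR/J and per the methods outcrossed to BALB/c, sorted by GFP from pooled adult females and expanded, and 3 cultures received DMSO and 3 received 100 nM SAG, an agonist of the Hedgehog receptor component Smoothened, for 24 h. Neural retina, lung, liver and heart ECs came from B6129PF1/J mice 1 month old, with 3 isolations each of 7 animals for retina and of 1 animal for the other organs. The choroidal EC libraries behind the enrichment table belong to no sample of this series and were not analysed here, and only their average was used. Per the paper, choroidal EC data came from an earlier study, and the methods give the same strain and age for ECs of all tissues. In that table, choroidal origin and the earlier study cannot be told apart.

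The counts summed to 17168578 unique molecular identifiers (UMIs) in 3637 cells of B6129PF1/J and 15230413 UMIs in 3928 cells of C57BL/6J, with medians of 3881 and 3174.5 UMIs per cell. The 2 libraries shared 22 cell barcodes. The authors' 13 clusters were used: RPE (cluster 1), ECs with high, medium and low *Kdr* (2, Kdr-high; 3, Kdr-med; 4, Kdr-low), stromal cells (5 to 8), smooth muscle cells (9), melanocytes (10), hematopoietic cells (11) and Schwann cells (12 and 13). The EC markers *Cdh5*, *Pecam1*, *Cldn5*, *Kdr* and *Tie1* had between 88.5% and 97.6% of their UMIs in clusters 2 to 4 in both libraries. Among the stromal clusters, cluster 6 had the highest levels of the pericyte markers *Pdgfrb* and *Kcnj8* in both libraries, cluster 7 those of the fibroblast collagen gene *Col1a1*, and cluster 8 those of *Pdgfra*. Levels are UMIs per 10,000 UMIs of a cluster, followed in brackets by the exact Poisson 95% interval, and shares of UMIs or cells are followed by the Clopper-Pearson 95% interval. The intervals hold counting error alone, since animals were pooled.

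*Robo4* lies on chromosome 9 at chr9:37401897-37415115 on the plus strand and *Robo3* beside it at chr9:37415669-37433246 on the minus strand (GRCm38, the assembly mm10 names), so that their 3′ ends face each other across 553 bases. *Unc5b* lies at chr10:60762593-60831581 on the minus strand and *Ntn4* at chr10:93640681-93747207 on the plus strand. *Ntn1* lies at chr11:68209364-68400823 on the minus strand, and *Slit3* at chr11:35121224-35708507 and *Slit2* at chr5:47983138-48307733 on the plus strand. *Robo1* lies at chr16:72308306-73046095 on the plus strand and *Robo2* at chr16:73891839-74411825 on the minus strand. Promoter windows of 300 bases, 250 of them before the start of transcription, were found in RefSeq (GRCm38.p6) for 8 of the 9 genes; *Ntn1* had none.

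*Robo4* and *Unc5b*, receptors that bind each other and that were both highest in EC clusters, are shown by the bases of this window that precede every annotated transcript of the gene (chr9:37401722-37401896, plus strand, 175 bases; chr10:60831582-60831831, minus strand, 250 bases). Both run 5′ to 3′ on the strand of the gene, and capitals mark CG dinucleotides, the sites of DNA methylation.
Robo4: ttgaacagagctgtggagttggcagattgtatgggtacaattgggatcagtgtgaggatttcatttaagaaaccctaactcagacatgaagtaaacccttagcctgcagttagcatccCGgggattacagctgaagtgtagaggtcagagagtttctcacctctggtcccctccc
Unc5b: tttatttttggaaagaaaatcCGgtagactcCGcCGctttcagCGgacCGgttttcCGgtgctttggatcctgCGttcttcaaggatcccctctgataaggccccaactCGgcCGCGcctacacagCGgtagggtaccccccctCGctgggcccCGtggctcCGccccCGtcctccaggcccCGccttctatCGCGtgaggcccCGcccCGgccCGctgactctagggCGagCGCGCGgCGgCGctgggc
The printed stretch of *Robo4* held 1 CG and that of *Unc5b* 27. In the whole windows, *Robo4* had 2 and *Unc5b* 36, while the median of all 32851 windows of this length was 7. At most 2 were found in 23.3% of all windows and at least 36 in 6.23%. The GC box, GGGCGG on either strand, occurred 3 times in the window of *Unc5b* and of *Robo3*, 6 times in that of *Slit3* and not in that of *Robo4*, against 35.7% of all windows with at least 1 copy. GGAA, the core of sites for the ETS factors of endothelium, occurred 4 times in the window of *Robo4* and 2 times in those of *Unc5b* and *Robo3*, and 96.0% of all windows held it. The letters TGGGTGGTC of the GLI site, read on both strands, were in none of the 10 windows of these genes and in 0.253% of all windows. Neither TGACTCA of the AP-1 site nor TGTTTAC of the forkhead site was in them, against 5.20% and 3.65% of all windows, and CCGGAA, a longer ETS letter run, was in that of *Unc5b* alone and in 14.9% of all.

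As groups, most receptor UMIs were in ECs and most ligand UMIs were outside them. Of the UMIs of *Robo1* to *Robo4* and *Unc5b* as a group, 89.6% (87.6 to 91.4%) of 1030 in B6129PF1/J and 91.3% (89.2 to 93.0%) of 905 in C57BL/6J were in ECs. Of the UMIs of *Slit2*, *Slit3*, *Ntn1* and *Ntn4*, 59.4% of 1122 and 53.4% of 852 were in stromal cells. Smooth muscle cells held 17.3% and 22.5% of the ligand UMIs, ECs 15.0% and 16.8%, and RPE 7.75% and 5.16%. These sums are led by *Robo4* among the receptors and by *Ntn1* and *Ntn4* among the ligands, and single genes differed: 52.4% and 35.7% of the UMIs of *Robo1*, 55% and 75% of *Robo2* and 32.0% and 19.0% of *Unc5b* were stromal. Over all genes with at least 50 UMIs, 9.65% had at least 50% of their UMIs in ECs in B6129PF1/J and 12.5% in C57BL/6J. Among the 6 genes of the family with that many, *Robo3*, *Robo4* and *Unc5b* were above this share in both libraries and *Slit3*, *Ntn1* and *Ntn4* below it. Shares of UMIs also follow the size of a compartment, and the compartments' shares of all UMIs were not set beside them. The levels below are scaled to the UMIs of each cluster.

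**Figure D1:**
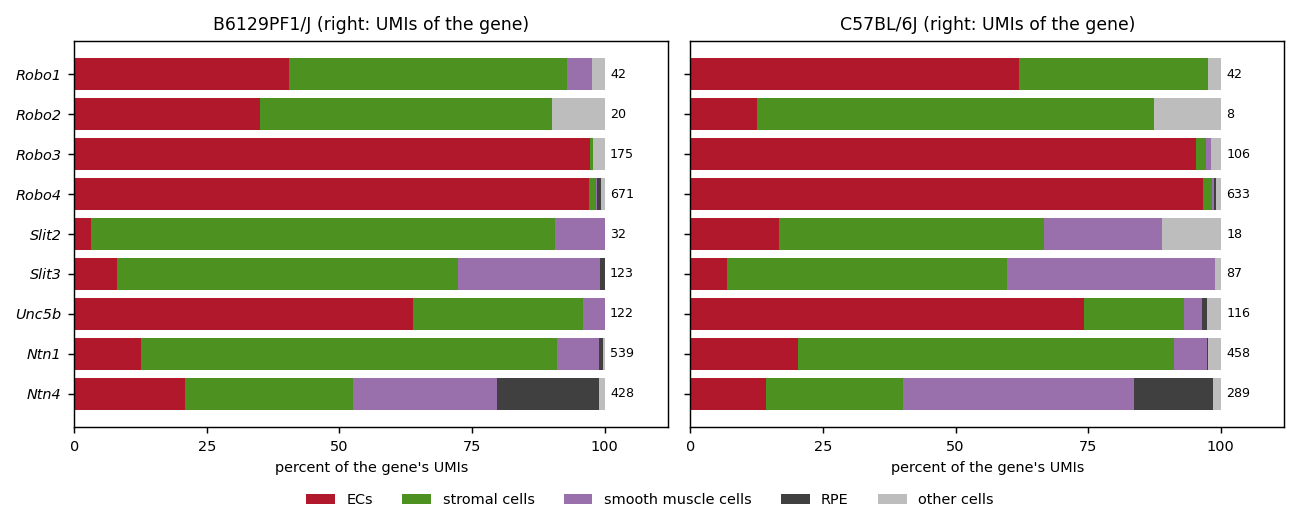
Share of each gene's UMIs (horizontal axis, percent) that fell in ECs, stromal cells, smooth muscle cells, RPE and other cells, with B6129PF1/J on the left and C57BL/6J on the right; the number beside each bar is the gene's UMIs in the library. *Robo3* and *Robo4* were EC genes in both libraries, with 95.3 to 97.1% of their UMIs there, and the ligands were mostly outside ECs.

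*Robo4* was seen in more cells than the other receptors, 406 in B6129PF1/J and 416 in C57BL/6J. In B6129PF1/J its level was 1.82 UMIs per 10,000 (1.63 to 2.02) in Kdr-high ECs, 1.19 (1.05 to 1.33) in Kdr-med ECs and 0.581 (0.350 to 0.907) in Kdr-low ECs. In C57BL/6J it was 1.60 (1.43 to 1.80), 1.12 (0.994 to 1.25) and 0.544 (0.322 to 0.860). The order was thus the same in both libraries, and in neither did the intervals of neighbouring EC clusters overlap. At least 1 UMI was seen in 53.0% and 44.2% of Kdr-high ECs, and in 1.23% and 0.535% of RPE cells, which serve as a type that should lack the gene and were about as deeply sampled (medians of 4232.5 and 3460 UMIs in Kdr-high ECs, 5263 and 3406.5 in RPE). Outside ECs its level was at most 0.0981 in any cluster, from 3 UMIs in Schwann cells of cluster 12.

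*Robo3* was narrower. In B6129PF1/J it had 0.619 UMIs per 10,000 (0.513 to 0.742) in Kdr-high ECs, 0.216 (0.161 to 0.283) in Kdr-med ECs and 0 of 327287 UMIs in Kdr-low ECs (0 to 0.113). In C57BL/6J the levels were 0.389 (0.304 to 0.490), 0.108 (0.0721 to 0.155) and 0.0302 (0.000765 to 0.168), the last from 1 UMI. The step from Kdr-high to Kdr-med ECs was beyond the counting intervals in both libraries. RPE had no UMI of *Robo3* in 407 and 374 cells, with upper interval ends of 0.0123 and 0.0211, and the 9 clusters outside ECs other than RPE held 5 UMIs in each library. The highest level among these was 0.186 (0.0225 to 0.672) in Schwann cluster 13 of B6129PF1/J, from 2 UMIs in 1 cell. Its interval overlapped those of Kdr-high and Kdr-med ECs. At least 1 UMI was seen in 26.2% (21.8 to 31.0%) and 14.6% (11.3 to 18.5%) of Kdr-high ECs, or 8.92% and 6.45% after each cell had been thinned to 1700 UMIs.

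Within Kdr-med ECs of B6129PF1/J, the *Robo3* level was higher in the cells with most UMIs. In the 61 B6129PF1/J cells of cluster 3 with over 10000 UMIs its level was 0.469 (0.330 to 0.646), and in the 369 others 0.0924 (0.0517 to 0.152). In C57BL/6J it was 0.173 (0.0919 to 0.295) in 55 such cells and 0.0824 (0.0471 to 0.134) in 494 others, with overlapping intervals. In Kdr-high ECs the same split gave 0.781 and 0.580 in B6129PF1/J and 0.460 and 0.369 in C57BL/6J, again with overlapping intervals. *Robo4* in cluster 3 was 1.44 and 1.06 in B6129PF1/J and 1.18 and 1.09 in C57BL/6J. Cells with both *Xist* and *Ddx3y*, droplets of a female and a male cell, numbered 35 and 33 in all, and the part of such doublets in the *Robo3* level of the largest cells was not tested.

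*Unc5b* was spread over all 3 EC clusters. It reached 0.336 (0.168 to 0.601) and 0.332 (0.166 to 0.595) in Kdr-low ECs, from 11 UMIs in each library, 0.178 (0.124 to 0.249) and 0.164 (0.111 to 0.235) in Kdr-high ECs, and 0.137 (0.0941 to 0.192) and 0.167 (0.122 to 0.223) in Kdr-med ECs. These intervals overlapped, so no order among the EC clusters was detectable at this depth. Stromal cells had 0.0582 (0.0414 to 0.0796) and 0.0384 (0.0240 to 0.0581), below the 0.168 (0.133 to 0.210) and 0.177 (0.142 to 0.219) of all ECs. The EC share of *Unc5b* UMIs was 63.9% (54.7 to 72.4%) in B6129PF1/J and 74.1% (65.2 to 81.8%) in C57BL/6J. After a single random thinning to 1700 UMIs per cell it was 37.5% and 64.3%, and without cells of over 10000 UMIs 52.8% in B6129PF1/J. Both steps take more UMIs from cell types with more UMIs per cell. The B6129PF1/J medians were 4232.5 in Kdr-high ECs and 3516.5 in stromal cluster 5. The part of this depth difference in the lower shares was not tested. In Kdr-high ECs, *Robo4* was detected in 69.0% of the 29 cells with an *Unc5b* UMI and in 51.6% of the others in B6129PF1/J, and in 59.3% of 27 and 43.1% of the others in C57BL/6J, but the *Unc5b* cells were also larger (medians of 5076 against 4153 UMIs and 7195 against 3417.5).

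**Figure D2:**
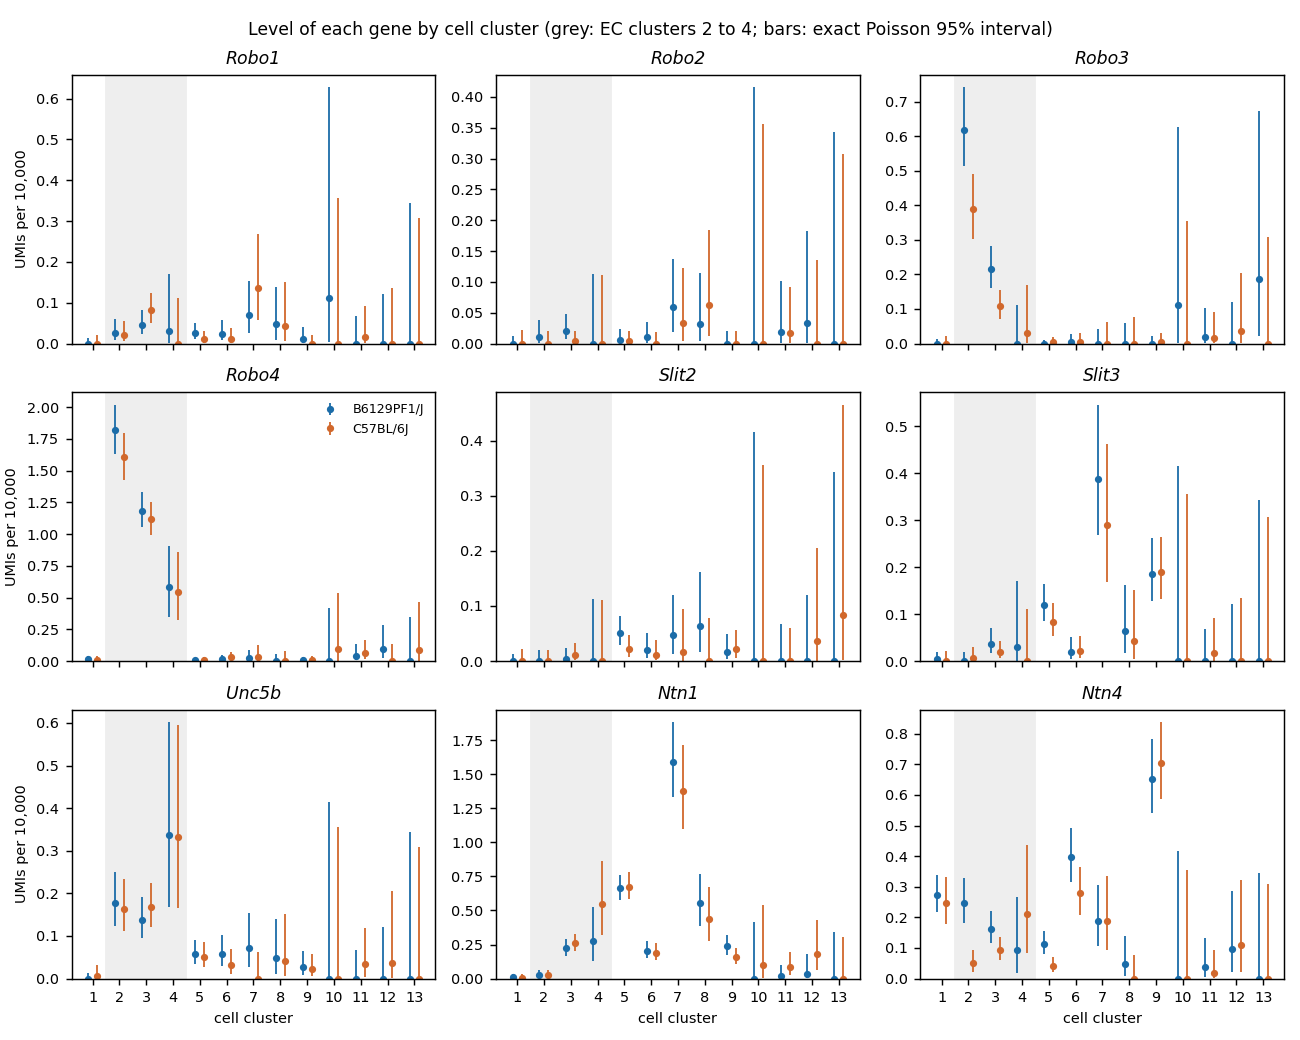
Level of each of the 9 genes (vertical axis, UMIs per 10,000, a scale of its own per panel) in clusters 1 to 13 (horizontal axis) in B6129PF1/J (blue) and C57BL/6J (orange), with exact Poisson 95% intervals as bars. *Robo3* and *Robo4* fall stepwise from cluster 2 to cluster 4, *Slit3* and *Ntn1* peak in stromal cluster 7 and *Ntn4* in smooth muscle cluster 9 of both libraries; the long bars at clusters 10 and 13 come from 16 to 46 cells.

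The ECs were also split by artery and vein genes. Cells of clusters 2 to 4 with a UMI of *Gja5*, *Gja4*, *Efnb2*, *Sema3g*, *Bmx* or *Hey1* and none of *Nr2f2*, *Selp*, *Ackr1*, *Ephb4* or *Tll1* were taken as arterial, which gave 284 and 308 cells, and the reverse as venous, which gave 168 and 161. A single UMI sets the class, and *Gja4* (25.2% and 20.8% of its UMIs in ECs), *Hey1* (17.9% and 26.5%) and *Nr2f2* (7.40% and 6.19%) came mostly from other cells; the part of their free RNA in the classes was not tested. The classes were therefore rebuilt, after the data had been seen, from the 4 artery genes (*Gja5*, *Efnb2*, *Sema3g* and *Bmx*) and 2 vein genes (*Selp* and *Ephb4*) with at least 50% of their UMIs in ECs of both libraries. *Unc5b* had 0.236 UMIs per 10,000 (0.161 to 0.336) in arterial and 0.0264 (0.00320 to 0.0953) in venous cells of B6129PF1/J, from 31 and 2 UMIs. In C57BL/6J it had 0.168 (0.107 to 0.249) and 0.0454 (0.00937 to 0.133), from 24 and 3 UMIs. The arterial level was higher in both libraries, and the intervals were apart in B6129PF1/J and overlapped in C57BL/6J. With the rebuilt classes the levels were 0.233 (0.151 to 0.344) and 0.0726 (0.0292 to 0.150) in B6129PF1/J, with intervals just apart, and 0.195 (0.124 to 0.293) and 0.140 (0.0700 to 0.251) in C57BL/6J, where no difference was detectable. Within cluster 3 alone, classed by all the genes, *Unc5b* had 13 and 2 UMIs in B6129PF1/J and 8 and 2 in C57BL/6J. The median arterial and venous cells were of like size, with 3874.5 and 3956.5 UMIs in B6129PF1/J and 3443 and 3324 in C57BL/6J.

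The ligand *Ntn1* had the reverse order, with 0.137 (0.0814 to 0.217) in arterial and 0.251 (0.151 to 0.392) in venous cells of B6129PF1/J, and 0.175 (0.113 to 0.258) and 0.439 (0.294 to 0.631) in C57BL/6J, where the intervals were apart. The classes also differ in cluster: 118 of 168 venous but 114 of 284 arterial cells of B6129PF1/J, and 111 of 161 and 143 of 308 of C57BL/6J, were in cluster 3, where *Ntn1* was above its Kdr-high level. Within cluster 3 it had 0.222 (0.111 to 0.398) in arterial and 0.328 (0.191 to 0.526) in venous cells of B6129PF1/J and 0.173 (0.0896 to 0.303) and 0.599 (0.398 to 0.866) in C57BL/6J. With the rebuilt classes it had 0.140 and 0.176 in B6129PF1/J and 0.195 (0.124 to 0.293) and 0.319 (0.206 to 0.470) in C57BL/6J, with overlapping intervals in both. *Robo4* did not separate the cells, with 1.31 (1.12 to 1.52) and 1.36 (1.11 to 1.65) in B6129PF1/J and 1.17 (1.00 to 1.36) and 1.08 (0.840 to 1.36) in C57BL/6J. *Robo3* had 0.366 and 0.251 in B6129PF1/J and 0.286 and 0.197 in C57BL/6J, with overlapping intervals. Within cluster 3 alone, where both kinds of cell were common, *Robo3* had 10 UMIs in 114 arterial and 4 in 118 venous cells of B6129PF1/J, and 14 in 143 and 2 in 111 of C57BL/6J. The level intervals overlapped there too, at 0.0969 to 0.372 and 0.0210 to 0.198 in B6129PF1/J. In C57BL/6J they were 0.111 to 0.339 and 0.00518 to 0.155. With the rebuilt classes *Robo3* had 0.298 and 0.290 in B6129PF1/J and 0.263 and 0.229 in C57BL/6J, again with overlapping intervals.

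**Figure D3:**
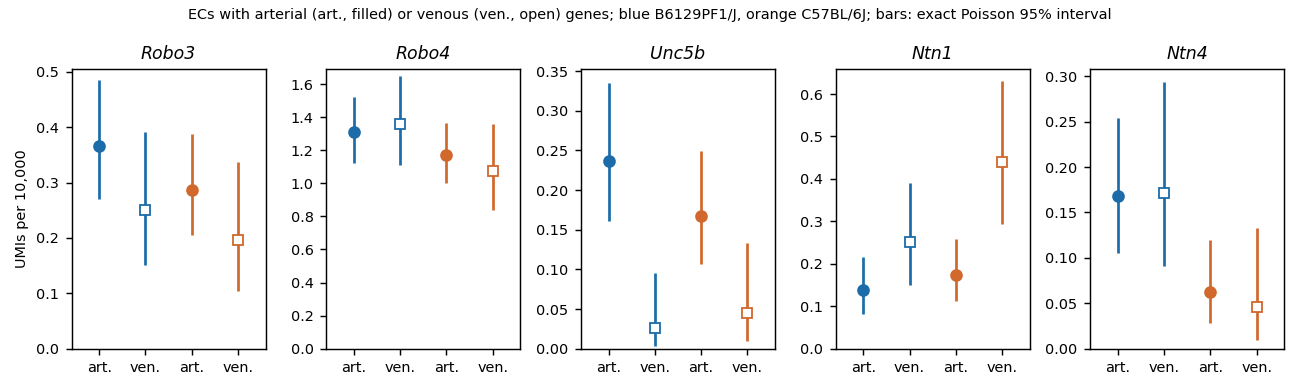
Level (vertical axis, UMIs per 10,000) of 5 genes in ECs with arterial genes (filled) and with venous genes (open) of B6129PF1/J (blue) and C57BL/6J (orange), with exact Poisson 95% intervals. *Unc5b* sits higher in the arterial and *Ntn1* in the venous cells of both libraries, with overlapping bars for *Unc5b* in C57BL/6J and for *Ntn1* in B6129PF1/J, and the bars of *Robo4* overlap in both.

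*Robo1* and *Robo2*, the main Slit receptors of neurons, were sparse. *Robo1* had 42 UMIs in each library, 17 and 26 of them in ECs and 22 and 15 in stromal cells. Its level was 0.0456 (0.0228 to 0.0816) and 0.0816 (0.0512 to 0.124) in Kdr-med ECs and 0.0707 (0.0259 to 0.154) and 0.136 (0.0588 to 0.268) in stromal cluster 7, which did not differ beyond counting error. *Robo2* had 20 and 8 UMIs, 11 and 6 of them in stromal cells, and no order could be read. Neither receptor had a UMI in RPE.

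*Ntn1* was the ligand with the most UMIs, 539 and 458, and 78.5% (74.8 to 81.9%) and 71.0% (66.6 to 75.1%) of them were stromal. Cluster 7 was highest, with 1.59 UMIs per 10,000 (1.33 to 1.88) and 1.38 (1.09 to 1.71), and 43.2% and 37.3% of its cells had a UMI. Among stromal clusters, 5 and 8 followed with 0.664 and 0.554 in B6129PF1/J and 0.675 and 0.440 in C57BL/6J, which did not differ beyond their intervals. Cluster 6 had 0.206 (0.148 to 0.278) and 0.189 (0.133 to 0.262), and smooth muscle cells 0.237 (0.171 to 0.320) and 0.156 (0.104 to 0.226). Among ECs, Kdr-med cells had 0.224 (0.168 to 0.292) and 0.260 (0.203 to 0.328) and Kdr-low cells 0.275 (0.126 to 0.522) and 0.544 (0.322 to 0.860), while Kdr-high cells had 0.0262 (0.00852 to 0.0612) and 0.0274 (0.00889 to 0.0639). The ECs with the highest *Robo4* and *Robo3* levels were thus the ones with the lowest *Ntn1* level. RPE, at 0.0133 (0.00363 to 0.0341) and 0.00572 (0.000145 to 0.0319), overlapped Kdr-high ECs.

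*Ntn4*, the netrin that binds laminin and sits in basement membranes, had another pattern. Smooth muscle cells were highest in both libraries, with 0.654 (0.540 to 0.784) and 0.703 (0.586 to 0.837), and the pericyte-marker cluster 6 followed with 0.397 (0.315 to 0.493) and 0.279 (0.209 to 0.365). RPE had 0.273 (0.217 to 0.339) and 0.246 (0.178 to 0.331), and the next gene of the family there was *Robo4* with 0.0167 and 0.0114. Kdr-high ECs had 0.247 (0.181 to 0.328) in B6129PF1/J and 0.0493 (0.0225 to 0.0936) in C57BL/6J, from 47 and 9 UMIs. Stromal cluster 8 was low, with 0.0475 from 3 UMIs in B6129PF1/J and 0 in C57BL/6J.

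*Slit3* shared its first place with *Ntn1*. Stromal cluster 7 had 0.389 (0.267 to 0.546) and 0.289 (0.169 to 0.463), smooth muscle cells 0.186 (0.128 to 0.261) and 0.190 (0.131 to 0.265), and stromal cluster 5 0.120 (0.0847 to 0.164) and 0.0830 (0.0526 to 0.125). Cluster 7 stood above smooth muscle beyond the intervals in B6129PF1/J and overlapped it in C57BL/6J. Cluster 6 had 0.0196 and 0.0210, from 4 UMIs each. *Slit2* had 32 and 18 UMIs, 28 and 9 of them in stromal cells and 1 and 3 in ECs, and its level was at most 0.0835 in any cluster, from 1 UMI.

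Across the 13 clusters, the genes most like each member were found by Pearson r of the log2 of the level averaged over the libraries plus 0.05. These values describe 13 points that share their libraries and were given no p. *Robo3* was most like *Fam167b* (0.97), *Plvap* (0.95), the fenestral diaphragm protein of capillaries, and *Dlk1* (0.94). *Robo4* was most like *Cyyr1* and *Gimap8* (both 0.98) and *AU021092* (0.98), and *Unc5b* most like the Notch ligand *Dll1* (0.97), *Rassf9* (0.96) and *Alox12* (0.95). Of the ligands, *Ntn1* was most like the macrophage growth factor *Csf1* (0.95), *Scmh1* (0.92) and *Fndc3b* (0.92), *Slit3* most like *Mical2* (0.94), *Tmeff2* (0.93) and *Tcea3* (0.91), and *Ntn4* most like *Ccdc149* (0.87), the chemokine receptor *Ackr3* (0.87) and *Gm11273* (0.84). Within the family, r was 0.81 for *Robo3* with *Robo4*, 0.79 for *Robo4* with *Unc5b* and 0.78 for *Slit3* with *Ntn1*.

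The libraries of the 2 strains were set side by side for gene and cluster pairs with at least 20 UMIs in a library. Of 22 such pairs of the family, 3 were at least 2 times as high in B6129PF1/J and 0 were in C57BL/6J, beside 2.24% and 2.21% of 71863 pairs of all genes. The 3 were *Ntn4* in Kdr-high ECs (5.01 times), *Ntn4* in stromal cluster 5 (2.85 times, 0.113 against 0.0397) and *Robo3* in Kdr-med ECs (2.00 times). Without cells of over 10000 UMIs, the last was 1.12 times, below the fold, and the *Ntn4* ratios were 4.28 and 2.75 times. *Robo3* in Kdr-high ECs was 1.59 times as high. *Robo4*, in contrast, was 1.13 and 1.06 times as high in the same clusters, and *Ntn4* in smooth muscle cells 0.930 times. The other 19 pairs lay between 0.558 times (*Robo1* in Kdr-med ECs, 11 and 22 UMIs) and 1.74 times (*Ntn4* in Kdr-med ECs). The median ratio was 1.14 over the 22 pairs and 0.975 over all.

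Other genes of the same pathways, 13 ligands, 15 receptors and coreceptors and 20 effectors, were listed by function. At a level of at least 1 UMI per 10,000 in a cluster of both libraries stood 1 ligand, 7 receptors or coreceptors and 4 effectors. The ligand was *Flrt3*, a partner of UNC5 and Roundabout receptors, with 1.70 (1.27 to 2.23) and 1.43 (1.02 to 1.96) in Schwann cluster 12. *Adora2b*, an adenosine receptor that has been described as a netrin-1 partner, stood at 1.31 and 1.21 in RPE. Of the heparan sulfate carriers that hold Slits, *Sdc1* and *Sdc2* were highest in cluster 6 (2.09 and 1.91, 6.77 and 4.20), *Sdc4* in Schwann cluster 12 (5.78 and 6.13), and *Sdc3* and *Gpc1* in melanocytes (1.58 and 1.45, 1.24 and 1.83). The melanocyte values came from 16 and 26 cells. The melanocyte interval of *Sdc3* overlapped that of a stromal cluster in both libraries, and that of *Gpc1* overlapped Schwann cluster 13 in B6129PF1/J. *Dag1*, the dystroglycan that binds Slit, was highest in Schwann cluster 13 (2.70 and 3.76), overlapping Schwann cluster 12 in B6129PF1/J.

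Among the effectors, *Ablim1*, an actin-binding LIM protein of netrin signaling, was highest in Kdr-med ECs with 3.84 and 3.38. The adaptor *Nck1* was highest in Kdr-low ECs with 1.80 (1.37 to 2.33) and 2.15 (1.68 to 2.71). These overlapped Kdr-high ECs in B6129PF1/J (1.22 to 1.56) and stromal cluster 7 in C57BL/6J (1.13 to 1.75). The kinase *Fyn* was highest in Schwann cluster 13 with 1.77 (1.06 to 2.76) and 1.34 (0.763 to 2.17), overlapping the 1.34 and 1.01 of Kdr-high ECs. *Ptk2*, the focal adhesion kinase, was highest in Schwann cluster 12 with 1.96 and 2.09. *Fyn* had 70.2% and 71.9% of its UMIs in ECs. Of the 20 effectors, 8 had at least 50% of their UMIs in ECs in each library, beside the 9.65% and 12.5% of all genes, as had 1 of 7 and 0 of 5 of the other ligands with at least 50 UMIs and 0 of 9 of the other receptors and coreceptors. The classical netrin receptor *Dcc* had 13 and 15 UMIs in all, and *Neo1*, its relative neogenin, had 389 and 271, of which 12.3% and 21.0% were in ECs.

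In the table of genes enriched in choroidal ECs, *Robo3* had an average of 21.4 FPKM (fragments scaled to transcript length and library size) in choroidal ECs, against 0.0270 in neural retina, 0.00200 in lung, 0.00400 in liver and 0.00500 in heart ECs. The log2 ratio of choroidal to neural retina ECs, the highest of the other tissues, was 7.40 after 0.1 FPKM was added to each, 9.17 with 0.01 FPKM and 4.44 with 1 FPKM, so its size is set by the amount added to a value near 0. The table holds only genes that passed the authors' thresholds, so nothing follows for the 8 genes it does not list. It also lists the RPE genes *Rpe65* (21.8 FPKM in choroidal ECs) and *Rgr* (50.9 FPKM) and the pigment gene *Pmel* (18.8 FPKM), while *Robo3* had no UMI in RPE cells of either scRNAseq library and 1 in the 16 melanocytes of B6129PF1/J and 0 in the 26 of C57BL/6J.

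The bulk tables of the *Ihh* deletion and of SAG give each group as the average FPKM of 3 libraries, without the values of single libraries. The authors' own fold changes and p-values in them were not used, so the ratios below carry no error and no test. A gene counts as past the fold where the FPKM plus 0.1 differed by at least 1.5 times and the higher average reached 0.1 FPKM. In RPE/choroid, *Ihh* itself averaged 1.53 FPKM in Ihh+/+ and 0.454 in Ihh iΔEC/iΔEC mice. Its target *Gli1* averaged 9.40 and 3.15 FPKM.

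All 9 genes of the family were measurable there. Past the fold were 3 on the lower side in Ihh iΔEC/iΔEC, *Robo1*, *Slit3* and *Ntn1*, and 1 on the higher side, *Slit2*, beside 3.7% of 14743 genes lower and 3.87% higher. *Robo1* averaged 1.00 FPKM in Ihh+/+ and 0.514 in Ihh iΔEC/iΔEC, 0.512 times as much. *Slit3* averaged 4.95 and 3.00 (0.606 times) and *Ntn1* 17.8 and 11.5 (0.647 times). *Slit2* averaged 0.367 and 0.666 (1.81 times), the opposite direction to *Slit3*. With 1 FPKM added in place of 0.1, the log2 ratios of *Robo1* (-0.40), *Slit3* (-0.57) and *Slit2* (0.28) were below the fold, while *Ntn1* was only just past it. The median log2 ratio was -0.08 over the 9 genes and -0.04 over all genes tested.

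The endothelial receptors differed less. *Robo4* averaged 4.30 FPKM in Ihh+/+ and 4.10 in Ihh iΔEC/iΔEC (0.952 times), *Robo3* 1.84 and 1.49 (0.811 times) and *Unc5b* 1.24 and 1.42 (1.14 times). *Ntn4* had the most FPKM of the family and was level, with 30.6 and 30.3 (0.989 times). *Robo2* had 0.216 and 0.200.

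In bulk tissue, fewer cells of a type and less RNA per cell cannot be told apart. The stromal markers *Pdgfra*, *Col1a1*, *Dcn* and *Lum* were all lower in Ihh iΔEC/iΔEC, 3 of 4 past the fold, with a median log2 ratio of -0.70 and a summed 616 FPKM in Ihh+/+ against 395. Over the 273 genes with at least 80% of their UMIs in stromal clusters of both libraries, the median was -0.29 (quartiles -0.54 and -0.06), and 59 were past the fold on the lower side and 7 on the higher. *Slit3* at -0.70 and *Ntn1* at -0.62 lay below the lower quartile of these genes. The 250 EC genes chosen the same way had a median of -0.14 (quartiles -0.32 and 0.00298), which spans *Robo4* at -0.07 and *Robo3* at -0.28. The 30 smooth muscle genes had a median of -0.11 and the 131 RPE genes 0.27. All 5 photoreceptor markers were lower, with a summed 80.8 FPKM in Ihh+/+ against 28.2. Of 3 genes listed as markers of retinal neurons and glia, 1 was past the fold, on the higher side (*Pax6*, 0.570 against 5.62 FPKM). The others do not mark retinal cells alone in this tissue. *Glul* was highest in Kdr-low ECs (19.1 and 17.9 UMIs per 10,000) and *Thy1* in stromal cluster 7 (0.589 and 1.16). Of the melanocyte markers, 2 of 3 were past the fold on the lower side (1613 against 1020 FPKM, summed over the 3). The part of these shifts in the values of the family was not tested.

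**Figure D4:**
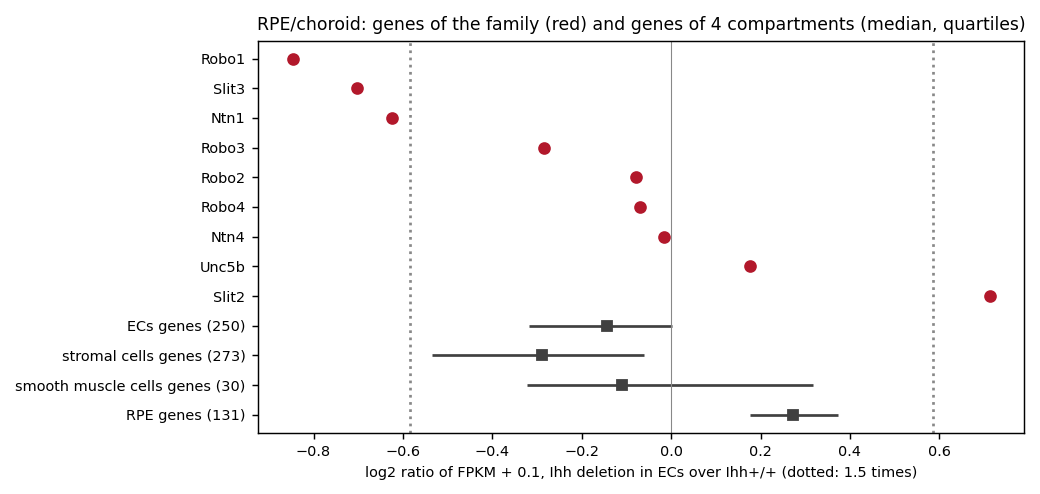
Log2 ratio of FPKM plus 0.1 in Ihh iΔEC/iΔEC over Ihh+/+ RPE/choroid (horizontal axis) for the 9 genes (red points) and for genes with at least 80% of their UMIs in ECs, stromal cells, smooth muscle cells or RPE (squares, median; lines, quartiles; number of genes in brackets). *Robo1*, *Slit3* and *Ntn1* lie left of the dotted line at 1.5 times lower and *Slit2* right of the one at 1.5 times higher; the points are ratios of group averages and carry no error.

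Of the other pathway genes, *Flrt3* alone was past the fold, with 0.921 FPKM in Ihh+/+ and 0.484 in Ihh iΔEC/iΔEC. This call was not recomputed with other amounts added. None of the 12 receptors and coreceptors or 17 effectors tested was.

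In cultured GLI1+ cells *Robo3* and *Robo4* were close to 0, while *Unc5b* was not. *Robo4* was listed at 0 FPKM with DMSO and at 0.00567 with SAG, and *Robo3* at 0.0143 and 0.0200, and both were below the 0.1 FPKM needed. The EC markers *Cdh5*, *Pecam1*, *Cldn5*, *Kdr* and *Tie1* summed to 0.415 FPKM with DMSO and 0.459 with SAG, and the stromal markers to 2625 and 2371. *Gli1* averaged 0.0280 FPKM with DMSO and 3.65 with SAG.

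With DMSO the cultured cells held *Slit3* at 14.6 FPKM, *Slit2* at 13.4, *Robo1* at 8.74, *Unc5b* at 5.92, *Ntn4* at 5.72, *Robo2* at 1.05 and *Ntn1* at 0.621. The order of the ligands thus differed from RPE/choroid, where *Ntn4* and *Ntn1* were above both Slits on the same scale. Of the 7 genes that were measurable, 1, *Slit3*, was past the fold with SAG, at 22.7 FPKM (1.55 times), and 0 were on the lower side, beside 2.27% of 12932 genes higher and 3.33% lower. After scaling by the median ratio of all genes, the log2 ratio of *Slit3* was 0.57, just below the fold. *Slit2* reached 17.9 FPKM (1.34 times), *Ntn4* 7.51 (1.31 times), *Robo2* 1.32 (1.26 times) and *Ntn1* 0.742 (1.19 times). *Robo1* was at 7.97 (0.912 times) and *Unc5b* at 5.21 (0.880 times). All 4 ligands were thus higher with SAG by average, with *Slit3* alone past the fold. The median log2 ratio was 0.31 over the 7 genes and 0.06 over all genes tested, which thus also leaned to the higher side. Of the other pathway genes, *Draxin*, a netrin-binding ligand, was past the fold, at 0.224 FPKM with DMSO and 0.110 with SAG. Both values are near the 0.1 FPKM needed, and this call was not recomputed with other amounts added.

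**Figure D5:**
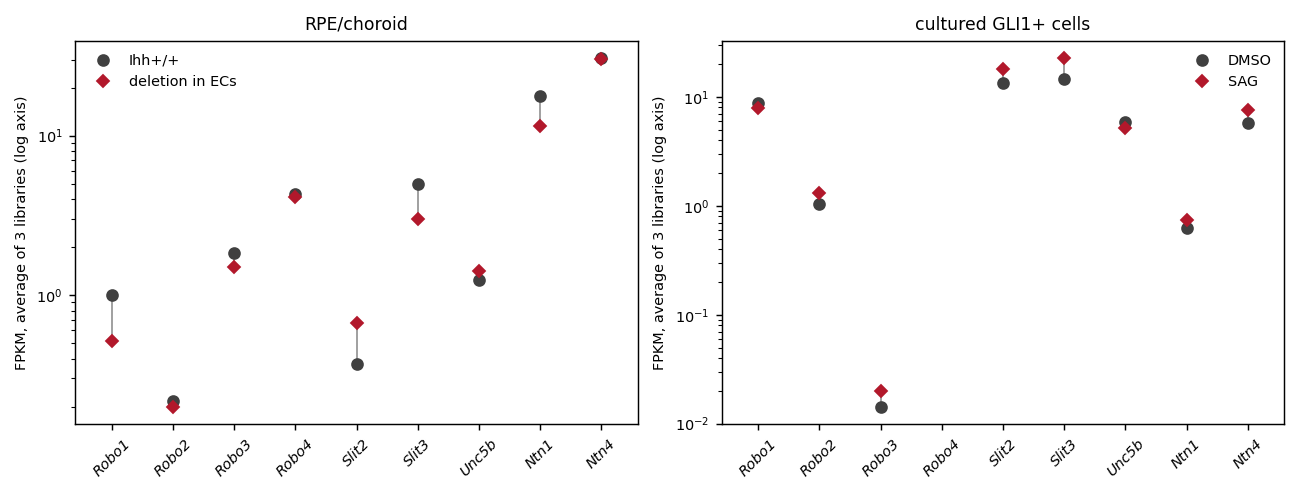
Average FPKM of 3 libraries (vertical axis, logarithmic) of each gene in RPE/choroid of Ihh+/+ (grey) and Ihh iΔEC/iΔEC mice (red, left) and in cultured GLI1+ cells with DMSO (grey) and SAG (red, right). *Slit3* stands lower with the deletion of *Ihh* and higher with SAG, and *Slit2* higher in both. *Ntn1* stands lower with the deletion and is a minor gene of the cultured cells. *Robo4* in the right panel is left out because it is listed at 0 with DMSO.

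*Slit3* was the gene of the family past the fold in both bulk comparisons, on the lower side where endothelial *Ihh* was deleted (0.606 times) and on the higher side where GLI1+ cells received SAG (1.55 times). Both calls depended on the settings. The first was below the fold with 1 FPKM added, the second after scaling by the median ratio, and neither reached a fold of 2. How many of all genes were past the fold in both comparisons was not counted. The other Slit, *Slit2*, was higher in both comparisons, at 1.81 times and 1.34 times, the first alone past the fold. *Ntn1*, which shared its highest cluster with *Slit3* in tissue, had 0.647 times and 1.19 times.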

How the data were processed

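Per the labels and methods, the authors made the UMI counts with Cell Ranger on mm10 and deposited raw counts per gene and cell, with clusters from Seurat 2.1 after removal of cells with few UMIs or genes or many mitochondrial UMIs and of genes in few cells. Clusters were built from these same counts. No doublets were removed here. The authors obtained FPKM with Cufflinks 2.0.2 from STAR 2.4.0f1 alignments to mm10, and deposited averages per group. The deposited columns of fold changes and adjusted p-values and the Seurat averages per cluster were not used.

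Levels, shares and intervals (95%) were computed with Python 3.11.15, numpy 2.4.6, scipy 1.17.1 and pandas 2.3.3, and figures drawn with matplotlib 3.10.9. Levels were recomputed after thinning each cell to 1700 UMIs, as means over cells, without cells with *Xist* and *Ddx3y* and without the cell with most UMIs. Leaving out cells of over 10000 UMIs and classing arterial and venous cells by other genes or within cluster 3 were added after the data had been seen. FPKM ratios used a pseudocount of 0.1 (alternatives 0.01 and 1, or scaling by the median ratio) and a fold of 1.5 (alternatives: 2, or at least 1 FPKM). The Poisson intervals and the fold of 2 between libraries were run on counts simulated from Kdr-high ECs. Those counts were drawn as Poisson, so they cannot show how the intervals hold under a wider spread. The FPKM fold was not simulated. FPKM tables give no depth, so the precision of low values is unknown. Pathway genes were named at 1 UMI per 10,000 in a cluster of both libraries or past the fold in a bulk table, and 3 similar genes per member with at least 50 UMIs in each library. *Dcc*, *Neo1*, *Ntng1*, *Nell2*, *Rgma* and *Rgmb* were named outside this rule. The genes, lists and rules were chosen with earlier results of these data known. The GENCODE annotation of GRCm38 gave coordinates. Transcription of neighbouring genes on opposite strands is told apart by the 3′ library of scRNAseq, and strand in the bulk counting is not given in the sources used here.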

Additional observations from a re-analysis of the deposited data

How the results depend on the processing

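Of 259 recomputed values for 72 results, 229 stayed within the interval or on the same side of the fold, 25 moved further, 5 fell below the fold and 0 past the fold reversed. The 30 recomputed arterial minus venous differences were all among the 229, yet some changed sign, with overlapping intervals. *Robo4* had 1.17 in arterial and 1.08 in venous cells of C57BL/6J, but 0.968 and 1.15 with the rebuilt classes. In B6129PF1/J it had 1.31 and 1.36, but 1.21 and 1.08 within cluster 3. *Ntn4* also changed order there. The deposited bulk values are averages, so leaving out single libraries could not be run for them, and with 1 library per strain not for the scRNAseq data. No paired analysis was possible because averages and single libraries carry no replicate values. With each cluster weighted equally, EC shares were 72.2% and 88.6% for *Robo3* in B6129PF1/J and C57BL/6J, 94.5% and 90.4% for *Robo4*, and 32.4% for *Robo1* in C57BL/6J. After thinning to 1700 UMIs per cell they were 37.5% and 64.3% for *Unc5b*, 12.1% and 7.48% for *Ntn4*, 15.4% for *Ntn1* in C57BL/6J, and 0 for *Slit2* in B6129PF1/J and *Robo2* in C57BL/6J, and the level of *Ntn4* in smooth muscle cells of C57BL/6J was 0.864. Without cells of over 10000 UMIs, an alternative chosen after seeing the data, EC shares in B6129PF1/J were 52.8% for *Unc5b*, 9.49% for *Ntn1* and 15.4% for *Ntn4*, and 0 for *Robo2* in C57BL/6J, and *Robo3* in Kdr-med ECs was 1.12 times as high in B6129PF1/J as in C57BL/6J, below the fold of 2.

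In the bulk tables a fold of 2 left 0 genes of the family past it on either side with the *Ihh* deletion and 0 higher with SAG, and a minimum of 1 FPKM left 0 higher with the deletion. With a pseudocount of 1 the log2 ratios of the deletion were -0.40 for *Robo1*, 0.28 for *Slit2* and -0.57 for *Slit3*, all below the fold, and those of SAG 0.18 for *Robo2* and 0.10 for *Ntn1*. With a pseudocount of 0.01 the SAG ratios were 0.30 for *Robo3* and 0.65 for *Robo4*, both under 0.1 FPKM. Scaling by the median ratio put *Slit3* at 0.57 with SAG, below the fold. The folds of *Slit3*, *Slit2* and *Robo1* thus depended on these settings.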

Other observations

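Some genes of the same pathways outside the family were highest in Schwann cells. In Schwann cluster 12, the GPI-anchored netrin relative *Ntng1* had 0.882 UMIs per 10,000 in B6129PF1/J and 0.514 in C57BL/6J, against 0.236 and 0.238 in stromal cluster 7, the next in order. *Nell2*, a ligand of ROBO3 in neurons, was also highest there, with 0.294 and 0.403, and had 0% of its 65 and 23 UMIs in ECs, the cells that held *Robo3*. Next for *Nell2* came 0.142 in stromal cluster 8 of B6129PF1/J and 0.170 in stromal cluster 7 of C57BL/6J. No intervals were computed for *Ntng1* or *Nell2*. The repulsive guidance ligand *Rgma*, which binds neogenin, was highest in stromal clusters 7 and 8 (0.365 and 0.395 in B6129PF1/J, 0.408 and 0.398 in C57BL/6J). Its relative *Rgmb* was highest in stromal cluster 8 (0.506) and Schwann cluster 12 (0.458) in B6129PF1/J. In C57BL/6J the highest were Schwann clusters 12 (0.734) and 13 (0.417). Of the *Rgmb* UMIs, 29.0% and 38.0% were in ECs, which was not set against the EC share of all UMIs.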
